A study of Mus musculus with 15 samples.

Results

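Arc, the activity-regulated cytoskeleton-associated protein gene, was followed through all 15 hippocampal RNA-seq libraries of a study of contextual fear memory. It is 1 of the 37310 genes in the deposited count table, was chosen by its symbol (ENSMUSG00000022602), and had reads in every library. All mice were 2-month-old C57BL/6J males that had been handled daily. FC mice received 1 foot shock of 1.5 mA lasting 2 s in a conditioning chamber, and their tissue was taken 30 min later. RT mice had the same training, went back into the chamber 24 h later for a 5-min test, and this second session was followed by dissection 30 min later. CC mice had the handling without any training, and their dissection was matched for time of day. Each group had 5 libraries, each made, by the study's methods, from both hippocampi of 1 mouse and named by its number in the file (3, 5, 6, 7 and 8), so that a library shows the mean over all hippocampal cell types of that mouse. Arc served the study as a positive control for training.

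Arc is an immediate-early gene, transcribed within minutes of strong synaptic activity without a need for new protein. Its mRNA is carried into dendrites and translated near active synapses, where the protein joins the endocytic machinery that removes AMPA receptors, and a pool of it acts in the nucleus. The protein descends from the Gag polyprotein of a retrotransposon and can form capsid-like shells. In hippocampus and cortex Arc RNA is widely used as a marker of excitatory neurons that were recently active.

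On the mm9 assembly with Ensembl 65 annotation, Arc lies on the minus strand of chromosome 15, from 74499513 to 74503000. No other annotated gene overlaps this span of 3488 bases, so reads assigned to Arc are not shared with a neighbour on either strand. Both annotated transcripts, Arc-001 and Arc-002, have 3 exons. The whole coding sequence of 1188 bases, stop codon left out as in the annotation, is in exon 1 (74501615 to 74502802), and both introns are in the 3′ UTR. The 2 transcripts differ only in where exon 1 starts and where exon 2 starts, and the gene-level counts do not separate them. Merged, the exons cover 3057 bases, which is the length used below for levels per length.

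The libraries held 35731428 to 62555543 reads assigned to genes, with a median of 52154887. FC3 and RT3 stood apart from the others: the interquartile range of relative log expression over all tested genes was 0.828 in FC3 and 0.436 in RT3, and at most 0.117 in the other 13 libraries. Markers of excitatory neurons (4 genes, Slc17a7, Camk2a, Neurod6 and Neurod2) summed to 4775 to 7145 RPM (reads for each 1000000 reads assigned to genes) in FC, 5704 to 7092 in RT and 6416 to 7616 in CC, and none of the 4 was called, that is had an edgeR false discovery rate (FDR) below 0.01, in FC or RT against CC. Dentate gyrus, CA1 and CA3 markers were present in every library and none was called, except that Pou3f1, 1 of the 3 CA1 markers, was at 0 in all 15 and was not tested. Pou3f1 has 2 annotated entries that overlap on the same strand, both listed at 0, so this 0 does not show that its RNA was absent. Markers of tissue next to the hippocampus were also counted: neocortical markers summed to 109 to 156 RPM in FC, 124 to 163 in RT and 126 to 172 in CC, and striatal markers to 51.1 to 98.8, 59.1 to 75.2 and 50.3 to 70.3 in the same groups, with none called. Markers of choroid plexus summed to 76.3 to 1065 RPM in FC, 48.2 to 295 in RT and 35.6 to 49.9 in CC, and 9 of 10 were called higher in FC and 1 of 10 in RT.

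Arc RNA was higher in every trained mouse than in every control. In FC, Arc took 224 RPM in FC3, 284 in FC5, 190.1 in FC6, 244 in FC7 and 224 in FC8. In RT it took 213 RPM in RT3, 251 in RT5, 218 in RT6, 198 in RT7 and 216 in RT8. In CC it took 100.2 RPM in CC3, 65.5 in CC5, 81.2 in CC6, 79.5 in CC7 and 94.6 in CC8. Both trained groups thus lay wholly above the controls, while the FC and RT ranges overlapped, with the RT range inside that of FC. FC5 was the highest of all 15 libraries and CC5 the lowest. The means were 233 ± 34.5 in FC, 219 ± 19.4 in RT and 84.2 ± 13.6 in CC (SD, n = 5 each), that is 0.0233%, 0.0219% and 0.00842% of the reads.

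**Figure D1:**
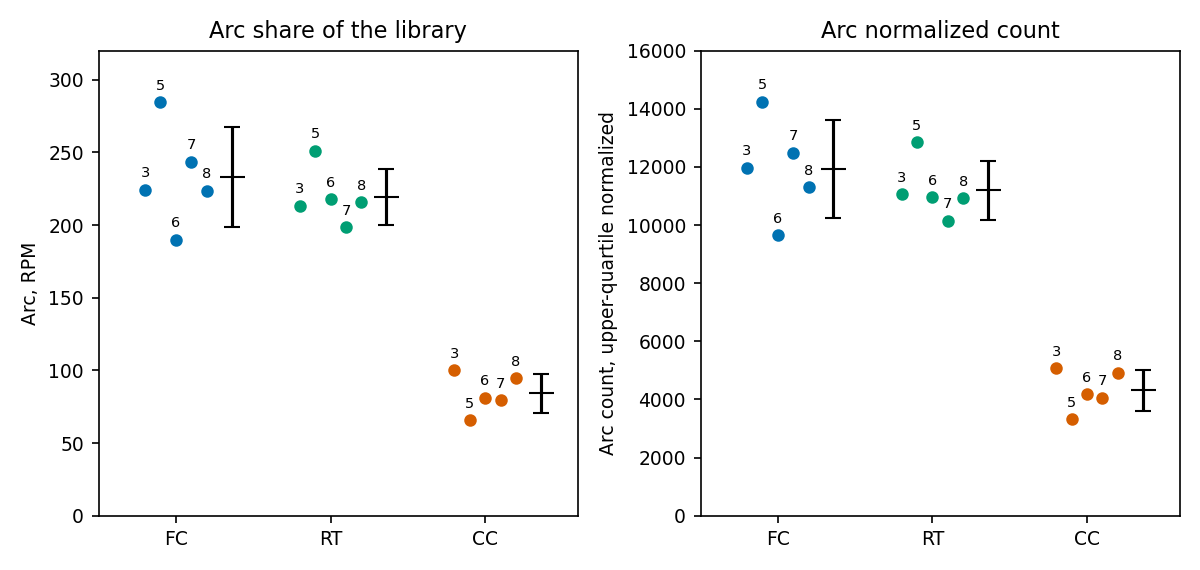
Arc in each library, in RPM (left) and as upper-quartile normalized counts (right), for FC, RT and CC from left to right. Points are libraries labelled by number, and bars are the mean and SD of 5 libraries. No FC or RT library reaches down to the highest CC library at 100.2 RPM, and the ranges of FC (190.1 to 284) and RT (198 to 251) overlap.

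The share of reads was 2.78-fold higher in FC than in CC as a ratio of geometric means, with an exact two-sided permutation p of 0.00794 (n = 5 each), the smallest that 5 against 5 libraries can give. RT was 2.63-fold higher than CC, with the same exact p of 0.00794. Complete separation of this kind was seen in the upward direction for 0.516% of the 18008 tested genes in FC against CC and for 0.877% in RT against CC. Arc was 1 of 52 genes, or 0.289%, for which it held in both. After upper-quartile (UQ) normalization, which scales each library by the upper quartile of its gene counts, the lowest FC library had 1.90 times and the lowest RT library 2.00 times the count of the highest CC library. Measured from the CC mean, single FC libraries were at 2.24 to 3.31 times it and single RT libraries at 2.35 to 2.98 times it, against 0.771 to 1.18 times for the CC libraries themselves. In tissue RNA, more cells expressing Arc and more Arc RNA per cell cannot be told apart.

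Counting error was a small part of this. Arc had 9001 to 13216 reads in FC, 7707 to 13099 in RT and 3246 to 5746 in CC. In FC5 its share of 0.0284% had a 95% Wilson interval of 0.0279% to 0.0290%, and in CC5 its share of 0.00655% had an interval of 0.00636% to 0.00676%. These intervals cover counting error only, since copies made in PCR are not separate molecules.

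In the model of all genes, Arc was among the strongest changes of both sessions. The model was edgeR's likelihood ratio test on UQ-scaled counts with 5 factors of unwanted variation estimated by RUVs, a method that takes such factors from replicates and negative control genes, and genes were called at an FDR below 0.01. It called 2.24% of the tested genes in FC against CC (1.32% higher and 0.922% lower), 1.01% in RT against CC (0.866% higher and 0.144% lower) and 0.122% in FC against RT. For FC against CC, Arc's fold change was 2.79 with a 95% interval of 2.38 to 3.27 (edgeR FDR 6.46e-32), the 8th smallest p of all genes and the 18th largest rise among those called. For RT against CC it was 2.59, with an interval of 2.21 to 3.04 (edgeR FDR 1.40e-27), the 7th smallest p and the 6th largest rise among those called. With UQ scaling alone, which left the extra variation of FC3 and RT3 in the data, Arc had the 3rd smallest p of all genes in FC and the 2nd in RT. A quasi-likelihood test in edgeR with the same 5 factors gave Arc a much larger FDR, 8.32e-07 in FC and 2.34e-06 in RT.

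Training and retrieval gave levels of Arc that were not distinguished. The fold change of FC over RT was 1.07, with a 95% interval of 0.917 to 1.26 (edgeR FDR 0.821), and an interval of this width does not show that the sessions gave the same level. The exact two-sided permutation p for the share of reads was 0.484 (n = 5 each). Within the pairs of like-numbered FC and RT libraries, FC was higher in 4 of 5 pairs, with log2 differences of 0.07 for number 3, 0.18 for number 5, -0.20 for number 6, 0.30 for number 7 and 0.05 for number 8. An exact sign-flip test over these 5 pairs gave p = 0.375, where the smallest it can give is 0.0625. Without FC5 the model's log2 difference changed sign, to -0.055, against 0.10 with all libraries.

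The rise of Arc was also measured against markers of excitatory neurons. Per read of the 4 excitatory neuron markers, Arc had 0.0364 ± 0.00763 reads in FC, 0.0336 ± 0.00332 in RT and 0.0123 ± 0.00171 in CC (SD, n = 5 each). On this scale the log2 difference was 1.55 for FC against CC and 1.46 for RT against CC, with an exact permutation p of 0.00794 for each. For the share of all reads it was 1.47 and 1.39. FC3 had the highest value in FC, 0.0470, against 0.0274 to 0.0408 in the other FC libraries. RT3 had the highest in RT, 0.0374, against 0.0302 to 0.0364 in the other RT libraries. Whether the larger difference on this scale holds without FC3 and RT3 was not tested. FC5, with the highest Arc level, was also the library with the most choroid plexus marker reads (1065 RPM). Without FC5, Arc's log2 fold change in FC against CC was 1.32, against 1.48 with it, and Arc was still called.

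The added Arc reads were among the largest gains of any called gene. Arc gained 149 RPM in FC over CC, and among called genes that gained only Ttr, the transthyretin gene of choroid plexus, gained more, with 297. In RT, Arc gained 135 RPM, more than any other of the 156 called genes that gained. Over all tested genes Arc ranked 18th by gain in FC and 11th in RT. The genes with the largest gains were Apoe, Fth1, mt-Rnr1, mt-Rnr2 and Nrgn in FC and Fth1, mt-Rnr1, Mbp, Apoe and Aldoa in RT, all very abundant RNAs, and none of them was called. By its reads, Arc stood between ranks 583 and 1051 of the tested genes in FC, between 703 and 976 in RT and between 2278 and 3545 in CC.

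In controls Arc varied between mice more than nearly all well expressed genes, and after training it did so when FC3 and RT3 were left out. Its share of reads had a coefficient of variation of 16.2% in CC, against 1.53% from counting alone, and 98.6% of the 8236 genes with a mean of at least 1000 UQ counts varied less. The median of those genes in CC was 5.05%. A wide spread between control mice was not particular to Arc. In CC, 2 other early genes, Egr1 and Nr4a1, were at 36.7 ± 8.03 and 21.5 ± 3.84 RPM per kb of exon. Arc was at 27.5 ± 4.45 on this scale (SD, n = 5 each). Some early genes varied less, such as Dusp1 at 4.84 ± 0.248 (SD, n = 5). In FC the coefficient for Arc was 14.8% and in RT 8.83%, and there 40.4% and 40.8% of genes varied less. The median over genes was 18.4% in FC with FC3 and 3.89% without it, and 10.6% in RT with RT3 and 4.82% without it. With FC3 left out, a step chosen after seeing the data, Arc varied by 16.8% over 4 FC libraries, and 99.3% of genes varied less. With RT3 left out, Arc varied by 9.98% over 4 RT libraries, and 91.8% of genes varied less. In the RUVs model, which removes shared variation, the biological coefficient of variation of Arc was 0.125, above that of 99.1% of tested genes (median 0.0435), while with UQ alone it was 0.163, above 37.9%. Whether the groups differ in the spread of Arc was not tested.

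**Figure D2:**
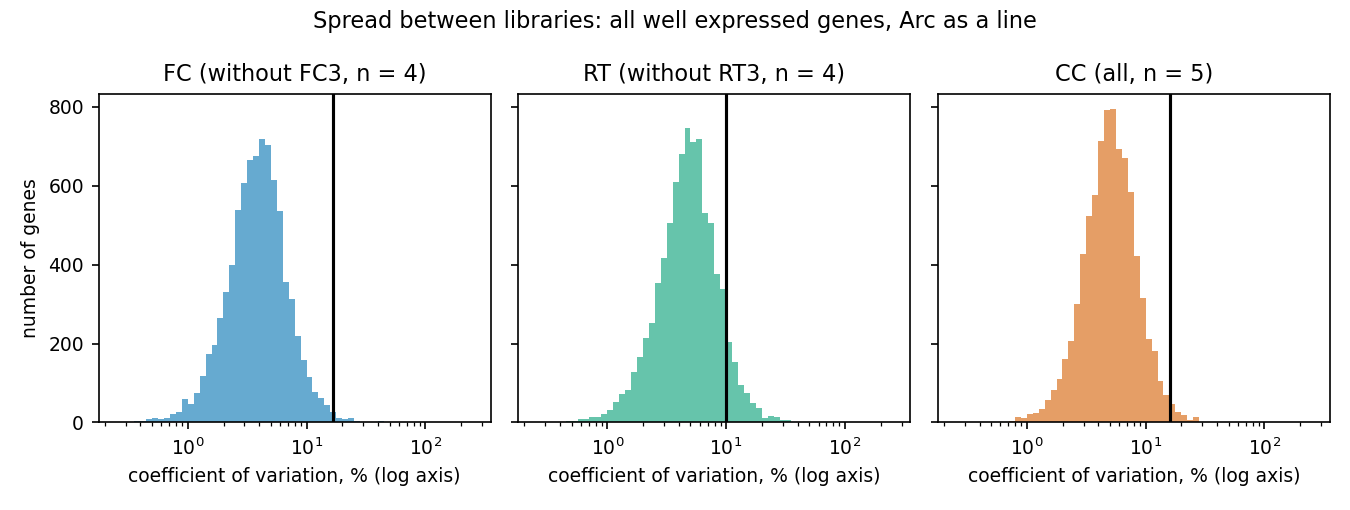
Coefficient of variation of the share of reads between libraries, in percent on a log axis, for the 8236 genes with a mean of at least 1000 UQ counts. FC is shown without FC3 (n = 4), RT without RT3 (n = 4) and CC with all libraries (n = 5), and the black line marks Arc, at 16.8% in FC, 9.98% in RT and 16.2% in CC. The line lies in the right tail of each distribution.

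Arc was set beside 26 other early genes, a list of transcription factors, phosphatases and effectors that neuronal activity induces. Of the 26, 17 were called higher in FC (65.4%) and 15 in RT (57.7%), and none lower, against 1.32% and 0.866% of all tested genes called higher. Their median log2 fold change was 0.56 in FC and 0.51 in RT, against -0.01 and 0.00 for all tested genes. Only Fos, a subunit of the AP-1 transcription factor, and Egr2, a zinc-finger transcription factor, had a larger fitted rise than Arc in FC or in RT. In RPM per kb of exon, Arc was the most abundant of the 27 genes in FC, at 76.3 ± 11.3, and in RT, at 71.7 ± 6.33 (SD, n = 5 each). In CC, at 27.5 ± 4.45, it came after Egr1, a zinc-finger transcription factor, at 36.7 ± 8.03 (SD, n = 5 each), and the ranges of Arc (21.4 to 32.8) and Egr1 (29.5 to 50.4) overlapped. Egr3, another member of the Egr family, followed Arc in CC at 26.5 ± 2.04 and did not differ from it beyond that spread. Fos and Egr2, which rose more, were at 2.21 and 0.323 in CC on the same scale.

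**Figure D3:**
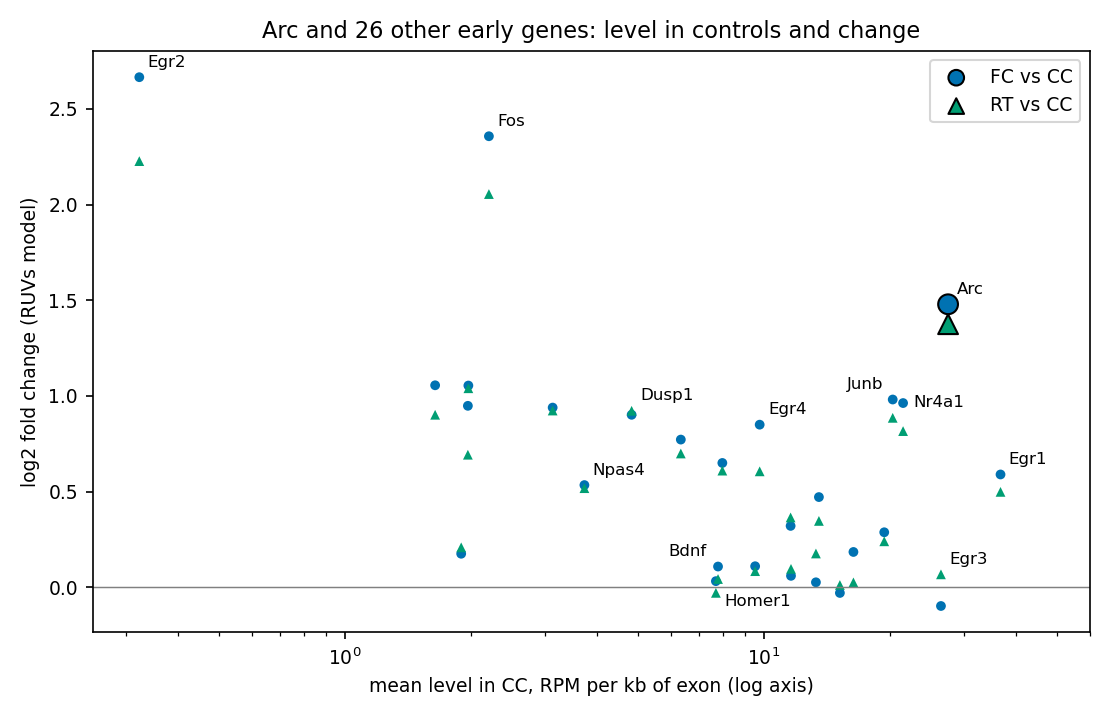
Mean level in CC, in RPM per kb of exon on a log axis, against the log2 fold change of the RUVs model, for Arc (large symbols) and 26 other early genes, with circles for FC against CC and triangles for RT against CC. Arc, at 27.5 with log2 fold changes of 1.48 and 1.37, lies above every other gene except Fos and Egr2, both of which have far lower levels in CC.

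The ratio of Arc reads to the reads of another gene in the same library does not depend on how libraries are scaled. Such ratios were tested for 6 genes and 3 comparisons, by exact two-sided permutation tests with Benjamini-Hochberg adjustment over the 18 tests. Against Fos, Arc rose less: there were 8.96 ± 0.776 Arc reads per Fos read in FC, 10.4 ± 0.521 in RT and 16.6 ± 3.48 in CC (SD, n = 5 each). The log2 difference of the ratio was -0.87 in FC against CC and -0.65 in RT against CC, with an adjusted exact p of 0.0179 for each. Against Egr2 there were 36.8 ± 3.71 Arc reads per Egr2 read in FC, 47.5 ± 7.00 in RT and 88.3 ± 42.0 in CC (SD, n = 5 each). The log2 differences were -1.16 in FC (adjusted exact p = 0.0179) and -0.79 in RT (adjusted exact p = 0.0286). The RT value for Egr2 moved past 0.05 without RT5, RT6, RT7 or RT8, with an adjusted exact p of at most 0.0612.

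Arc rose more than the other 4 genes tested. Against Egr1 there were 1.41 ± 0.140 Arc reads per Egr1 read in FC, 1.39 ± 0.103 in RT and 0.757 ± 0.167 in CC (SD, n = 5 each), so that Arc had more reads than Egr1 in every FC and RT library, and in CC in CC8 alone, where the ratio was 1.03. The log2 difference was 0.92 in FC and 0.90 in RT, with an adjusted exact p of 0.0179 for each. For Dusp1, a phosphatase that switches off MAP kinases, it was 0.60 in FC and 0.46 in RT, again with an adjusted exact p of 0.0179 for each. For Junb, another AP-1 subunit, it was 0.42 in FC (adjusted exact p = 0.033) and 0.43 in RT (adjusted exact p = 0.0179). For Nr4a1, an orphan nuclear receptor, it was 0.45 in FC (adjusted exact p = 0.033) and 0.51 in RT (adjusted exact p = 0.0286). The FC value for Nr4a1 moved past 0.05 without any 1 of CC3, CC5, CC6, FC5, FC6 and FC7, with an adjusted exact p of at most 0.0549.

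Between the 2 sessions, the ratio of Arc to Fos and to Egr2 was lower in FC than in RT, although Arc itself was not distinguished between them. The log2 difference of FC from RT was -0.22 for Fos (adjusted exact p = 0.0408) and -0.36 for Egr2 (adjusted exact p = 0.033). These tests did not pair like-numbered libraries. Within the 5 pairs the Egr2 ratio was lower in FC in 5 of 5 and the Fos ratio in 4 of 5, with an exact sign-flip p of 0.0625 for Egr2, the smallest that 5 pairs can give, and of 0.125 for Fos, so both were above 0.05 in a paired test. Neither Fos nor Egr2 alone was called between FC and RT, with an edgeR FDR of 0.225 for Fos and 0.182 for Egr2. The Fos ratio moved past 0.05 without RT3 or without RT5 and the Egr2 ratio without FC5, without FC6 or without RT3. For Egr1, Junb and Nr4a1 the log2 difference of FC from RT was 0.02, -0.01 and -0.06, with an adjusted exact p of 0.882, 0.96 and 0.679. For Dusp1 it was 0.14, with an adjusted exact p of 0.0857.

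**Figure D4:**
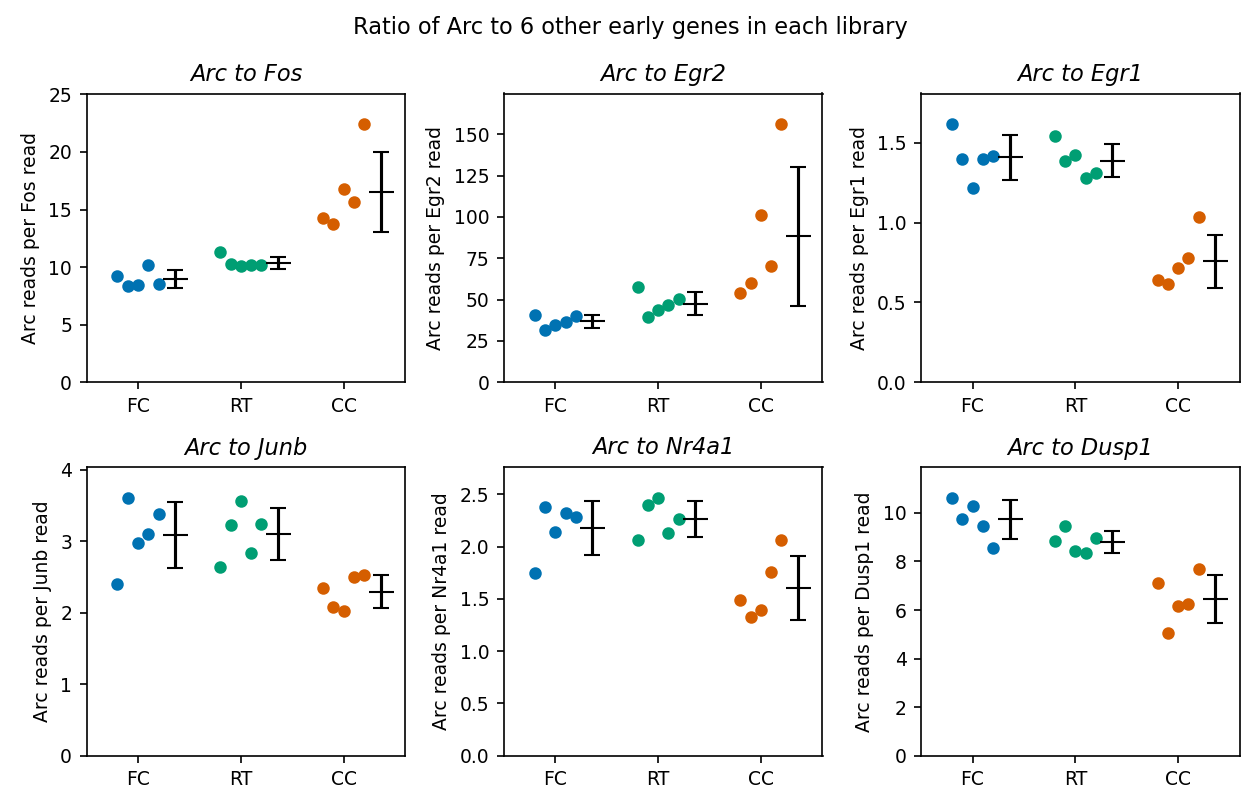
Arc reads per read of Fos, Egr2, Egr1, Junb, Nr4a1 and Dusp1 in each library, for FC, RT and CC from left to right, with the mean and SD of 5 libraries as bars. The ratio to Fos and Egr2 is lower in FC and RT than in CC, with means of 8.96, 10.4 and 16.6 for Fos, and the ratio to the other 4 genes is higher, with means of 1.41, 1.39 and 0.757 for Egr1.

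Among the trained mice, those with more Arc RNA also tended to have more RNA of the other early genes. Correlations were taken over the 10 FC and RT libraries after subtracting each group's mean of log2 UQ counts, for 6 genes, with 100000 permutations and Benjamini-Hochberg adjustment over the 6. Pearson's r with Arc was 0.845 for Fos (adjusted permutation p = 0.007), 0.843 for Dusp1 (0.007), 0.823 for Egr2 (0.007), 0.713 for Egr1 (0.0308), 0.649 for Nr4a1 (0.0493) and 0.490 for Junb (0.150). Spearman's rho was 0.539 for Fos, 0.649 for Dusp1, 0.638 for Egr2, 0.503 for Egr1, 0.818 for Nr4a1 and 0.673 for Junb, with an adjusted permutation p of 0.0337 for Nr4a1 and of 0.0762 or more for the others. Leaving out FC5 and FC6, the libraries farthest from the median of Arc, gave an r of 0.651 for Fos, 0.452 for Dusp1, 0.793 for Egr2, 0.604 for Egr1, 0.411 for Nr4a1 and 0.411 for Junb. Only the value for Egr2 then had an unadjusted exact permutation p below 0.05 (0.0277), and the other 5 had 0.0992 to 0.318. For Fos, Dusp1, Egr1 and Nr4a1, being past the threshold thus rests on those 2 libraries, whose removal also narrows the range of Arc. Without FC3 and RT3, r was 0.746 to 0.914 over the 6 genes. All of these points share library and depth scaling, and the 5 differences of FC from RT within numbers were too few for a correlation. The permutations did not keep like-numbered FC and RT libraries together, although these deviated together, so the p values may be too small.

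The genes whose profile was most like that of Arc were sought over all 15 libraries, among 14990 genes with a mean of at least 50 UQ counts. The measure was the standard deviation of the log2 ratio of a gene's reads to those of Arc. The smallest values belonged to Junb (0.269), Mir132 (0.275), Cyr61 (0.278), Sik1 (0.287), Nr4a1 (0.298), Dusp1 (0.303), Tm6sf2 (0.343) and Apold1 (0.348). A gene with the same UQ count in every library would have about 0.723, the standard deviation of Arc's own log2 UQ counts, and the median gene had 0.750. Cyr61 encodes a secreted matrix-associated protein, Sik1 a salt-inducible kinase, Tm6sf2 a membrane protein of lipid handling and Apold1 an endothelial early-response protein. All 8 were called higher, with log2 fold changes of 0.84 to 1.18 in FC and 0.82 to 1.10 in RT. For all 8 the trained libraries lay wholly above the controls. These genes were picked for following Arc over the same libraries, so this is largely part of the choice and not a separate result. Over all tested genes, 1.32% were called higher in FC and 0.866% in RT. The trained libraries of both groups lay wholly above the controls for 0.289% of tested genes. Fos came 16th (0.416), Egr1 23rd (0.480) and Egr2 119th (0.610), so by this measure the genes nearest to Arc were ones that rose somewhat less, not the 2 that rose more. With RUVs-adjusted values, 6 of the 8 were again among the nearest 8, and likewise 6 without FC3 and RT3. The measure is a description over libraries that share their scaling, and no test was made of it.

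**Figure D5:**
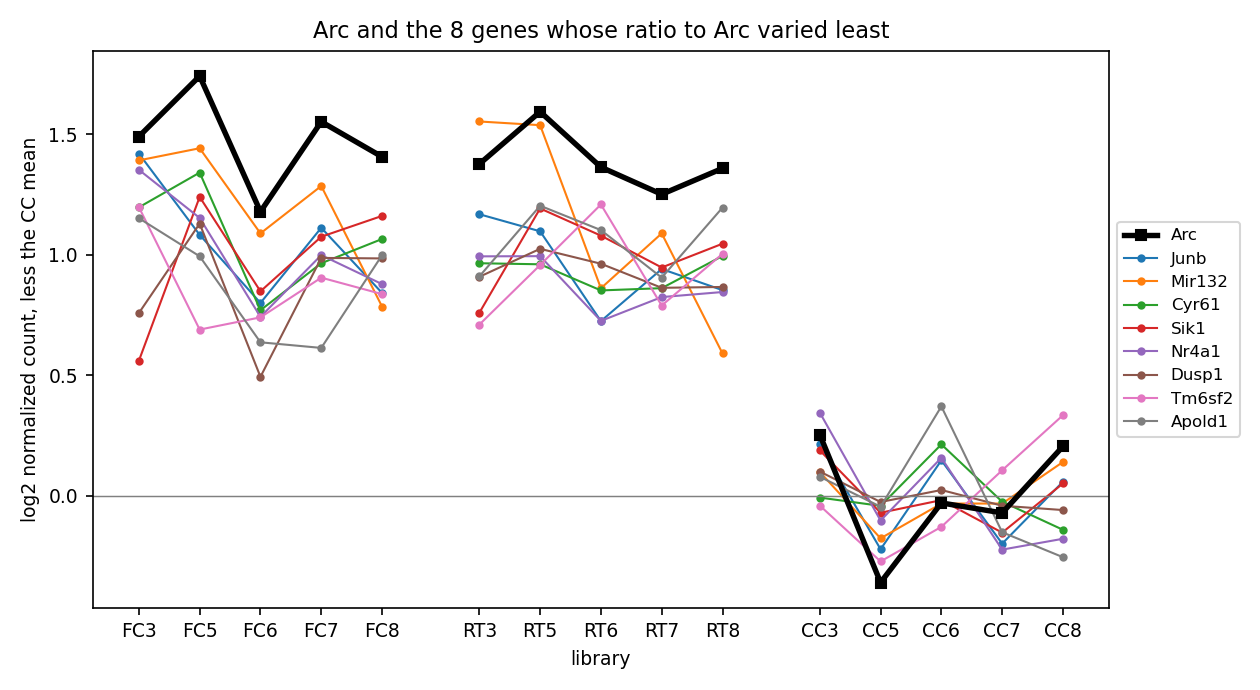
Log2 UQ count less the gene's CC mean in each library, for Arc (thick black line with squares) and the 8 genes whose ratio to Arc varied least, with FC libraries on the left, RT in the middle and CC on the right. Lines join the libraries of a group for the eye only, since replicates have no order. Arc lies above the other genes in all FC libraries, and FC6 is the lowest FC library for Arc.

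Mir132 is the gene of an activity-induced microRNA pair whose transcription CREB drives. Its reads here are polyA-selected reads assigned to the annotated hairpin, 74.4 ± 13.0 UQ counts in FC, 72.2 ± 20.7 in RT and 31.8 ± 2.77 in CC (SD, n = 5 each), and are not a measure of the mature microRNAs. The RefSeq mature sequences (GRCm38.p6, chromosome 11) are shown because Mir132 was the only microRNA gene among the 8, with the seed, bases 2 to 8, in capitals.
mmu-miR-132-5p: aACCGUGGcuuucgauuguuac
mmu-miR-132-3p: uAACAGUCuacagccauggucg

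Of the genes that act upstream of Arc transcription, 1 was called in FC and 2 in RT. The list held 19 genes, among them the serum response factor Srf and its partners, the CREB and MEF2 factors, Egr1, Egr3, Npas4 and kinases of the ERK pathway. Egr1, Egr3 and Npas4 were also on the list of 26 early genes. In FC, 1 of 19 was called (5.26%, against 2.24% of all tested genes): Egr1 was higher, with a log2 fold change of 0.59 (edgeR FDR 1.40e-05). In RT, 2 of 19 were called (10.5%, against 1.01%): Egr1 was higher at 0.50 (edgeR FDR 8.17e-04), and Mef2c, a MEF2 transcription factor, was lower at -0.18 (edgeR FDR 0.0018). Neither Egr1 nor Mef2c separated the groups. Egr1 had 7410 to 10199 UQ counts in FC, 7181 to 9272 in RT and 4757 to 7924 in CC, and Mef2c had 4889 to 6094, 4660 to 6060 and 5272 to 7500 in the same groups. Npas4, an activity-dependent transcription factor of neurons, had a log2 fold change of 0.53 in FC (edgeR FDR 0.0396) and was not called, and its CC libraries ranged widely, 348 to 1066 UQ counts, against 797 to 1031 in FC and 731 to 1014 in RT. The median log2 fold change of the 19 was -0.02 in FC and in RT. At an unadjusted p below 0.05 there were 6 of 19 in FC (31.6%, against 16.5% of all tested genes) and 5 of 19 in RT (26.3%, against 11.0%). With UQ scaling alone, which called 0.189% of all genes in FC and 0.106% in RT, none of the 19 was called, and 2 had an unadjusted p below 0.05 in each comparison (10.5%, against 3.07% of all genes in FC and 1.39% in RT). With the quasi-likelihood test, which called 0.544% in FC and 0.367% in RT, Egr1 in FC was the only call among them.

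No gene of the later steps of Arc's life was called in FC or RT against CC. Lists this short would often hold no call at the shares called over all genes, so this does not set them apart. None of 17 genes for the handling of its mRNA, which include the exon junction complex and nonsense-mediated decay factors, FMRP and the kinesin Kif5c, was called, against 2.24% of all tested genes in FC and 1.01% in RT, and their log2 fold changes in FC ran between -0.09 and 0.04. The smallest p was that of Cyfip1, an FMRP-binding protein, in FC, at -0.09 (edgeR FDR 0.238), and of Kif5c in RT, at -0.07 (edgeR FDR 0.1003). None of 22 genes for partners, targets and turnover of the protein was called. This list includes the endocytic genes Dnm2, Sh3gl1 and Sh3gl3, the AMPA receptor subunits Gria1 and Gria2 and the ubiquitin ligases Ube3a and Rnf216. The smallest p was that of Cacng2, which encodes the AMPA receptor auxiliary protein stargazin, in FC, at -0.13 (edgeR FDR 0.0896), and of Grin2b, an NMDA receptor subunit, in RT, at -0.29 (edgeR FDR 0.102). The median log2 fold change was -0.01 in FC and in RT for the first list, and -0.02 in FC and -0.03 in RT for the second. At an unadjusted p below 0.05 there were 2 of 17 in FC and 1 of 17 in RT for the first list and 2 of 22 in FC and 3 of 22 in RT for the second, against 16.5% and 11.0% of all tested genes, and UQ scaling alone and the quasi-likelihood test called none either.

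None of 17 other mouse genes derived from retrotransposon Gag, such as Peg10, Rtl1 and the Pnma and Rgag families, was called in FC or RT against CC. Over all tested genes 2.24% and 1.01% were called, and at such shares a list this short would often hold no call. Pnmal2, the most abundant of them per kb of exon, had 13790 ± 3779 UQ counts in FC, 14607 ± 1998 in RT and 15746 ± 723 in CC (SD, n = 5 each). The smallest p was that of Pnmal1 in FC, at a log2 fold change of -0.12 (edgeR FDR 0.0599), and of Rgag1 in RT, at -0.39 (edgeR FDR 0.0821). At an unadjusted p below 0.05 there were 2 of 17 in FC (11.8%, against 16.5% of all tested genes) and 1 of 17 in RT (5.88%, against 11.0%), and the 2 other models called none. The Cxx1a, Cxx1b and Cxx1c genes are near-identical copies, so uniquely mapped reads may undercount them.

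No neighbour of Arc on chromosome 15 was called higher in FC or RT. The nearest tested genes were Jrk, 29842 bases away on the side of higher coordinates, 4930572J05Rik (48664 bases) and Lynx1 (75286 bases) on the same side, and Bai1, 79640 bases away on the other. None of the 6 nearest tested genes, 3 on each side, was called in FC against CC. In RT against CC, Jrk, a gene for a nuclear DNA-binding protein, was lower, with 486 ± 16.7 UQ counts in RT and 588 ± 32.8 in CC (SD, n = 5 each) and a log2 fold change of -0.27 (edgeR FDR 8.89e-04). Its RT libraries (467 to 511) lay wholly below its CC libraries (548 to 635), as was seen for 0.416% of tested genes. In FC, Jrk was at -0.18 (edgeR FDR 0.0489) with 468 to 576 UQ counts, and its quasi-likelihood FDR in RT was 0.0424, short of the call.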

How the data were processed

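PolyA RNA of both hippocampi of 1 mouse per library was sequenced in 15 libraries, with 1 library of each group in a lane. That a library is 1 mouse follows the study's methods, while the deposited design text gives a larger number of animals in each group and a shorter collection period. The authors aligned read pairs with GSNAP to mm9, kept unique concordant pairs and deposited raw counts per Ensembl 65 gene made with HTSeq 0.6.1. The strand setting is not given in the sources used here. All 37310 gene IDs matched the annotation. All members and lists, and the rule for named genes, were chosen with earlier results of these data known. The rule took Arc, 6 early genes for ratios, the 8 genes most like Arc, those with larger gains (at most 5 a comparison), list members called or with the smallest p, and the 3 nearest tested genes on each side.

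The 18008 genes that exceeded 10 reads in over 5 libraries were fitted with edgeR 4.0.16 in R 4.3.3, over all 15 libraries, with UQ factors and 5 RUVs factors from 625 negative controls, and tested by likelihood ratio with Benjamini-Hochberg adjustment. Exact tests and ratios used numpy 2.4.6, and correlations with Arc used scipy 1.17.1. Before log2, a pseudocount of 1 was added to UQ counts for correlations, and of 0.5 to unscaled counts for likeness to Arc. Alternatives were UQ scaling without RUVs factors, TMM in place of UQ factors, 1 or 3 RUVs factors, quasi-likelihood, DESeq2 1.42.0, other filters, a replicate block, and libraries left out.

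Like-numbered FC and RT libraries deviated together from their group means, with correlations of 0.306 to 0.900 over 16648 genes (median 0.663). Between FC and RT libraries of different numbers they were -0.753 to 0.595 (median 0.165). Without number 3 they were 0.083 to 0.535 (median 0.226) for like numbers and -0.304 to 0.175 (median -0.063) for different ones. The ranges overlapped, and the pairing of FC with RT by number was inferred from these values. CC libraries correlated at -0.397 to 0.287 with like-numbered FC libraries and at -0.413 to 0.095 with like-numbered RT libraries, and were not taken as paired. With the replicate block the model called 82 genes in FC against RT, where it called 22 without it.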

Additional observations from a re-analysis of the deposited data

Results flagged for a closer look

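The ratio of Arc to Fos reads in RT had a library apart from the others. RT3 had 11.3 Arc reads per Fos read, against 10.1 to 10.2 in the other 4 RT libraries. RT3 is also 1 of the 2 libraries with wide relative log expression, and what part this has in the value was not tested. Of 27 groups of values examined for such a library, chance flags about 1 in 20.

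The ratio of Arc to 2 other early genes differed between FC and RT in the unpaired tests, while the paired tests stayed above 0.05. The log2 ratio of Arc to Fos differed by -0.218 between FC and RT (adjusted exact permutation p = 0.0408), and 4 of the 5 FC libraries lay below every RT library. The log2 ratio of Arc to Egr2 differed by -0.365 (adjusted exact permutation p = 0.033). Over the 5 like-numbered pairs the exact sign-flip p was 0.125 for Fos and 0.0625 for Egr2, and 5 pairs cannot give a p below 0.0625.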

How the results depend on the processing

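Arc was called in FC and in RT against CC, and not called between FC and RT, under every alternative run. Its log2 fold change in FC against CC was 1.32 to 1.57 with 1 library left out, 1.49 with the replicate block and RUVs factors and 1.47 with the replicate block and UQ alone. In RT against CC it was 1.29 to 1.46, 1.37 and 1.38 in the same order. Between FC and RT it was -0.055 (without FC5) to 0.18 with 1 library left out, 0.12 (edgeR FDR 0.652) with the block and RUVs factors and 0.09 with the block and UQ alone. The block changed no other call of Arc.

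Counts of called genes depended on the model. In FC against CC, where the RUVs model called 403 genes, UQ alone called 34, 3 RUVs factors 176, 1 factor 122, quasi-likelihood 98, DESeq2 164 and the replicate block with UQ alone 45. In RT against CC, where it called 182, UQ alone called 19, 1 factor 85, quasi-likelihood 66, DESeq2 85 and the block with UQ alone 27. In FC against RT, where it called 22, 3 factors called 1, DESeq2 4, no filter on low counts 34, the replicate block with RUVs factors 82 and leaving out FC3 and RT3 50, while UQ alone, 1 factor, quasi-likelihood and the block with UQ alone called 0 (with UQ alone, 122 genes had an unadjusted p below 0.05). Leaving out 1 library gave 241 to 624 in FC against CC, 142 to 266 in RT against CC and 3 to 93 in FC against RT. Of the 19 upstream regulators, 0 were called with UQ alone in either comparison and 0 by quasi-likelihood in RT against CC.

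With 1 library left out, the log2 difference of a ratio ran from -0.27 to -0.19 for Fos, -0.43 to -0.29 for Egr2, 0.11 to 0.19 for Dusp1, -0.031 to 0.070 for Egr1, -0.068 to 0.079 for Junb and -0.098 to 0.015 for Nr4a1 in FC against RT. It ran from -0.94 to -0.56 for Egr2 in RT against CC and from 0.38 to 0.54 for Nr4a1 in FC against CC. With the replicate block as sign flips over like-numbered pairs, added after seeing the data, the log2 difference of FC from RT stayed at -0.22 for Fos (exact p = 0.125) and -0.36 for Egr2 (exact p = 0.0625, the smallest 5 pairs can give), both above 0.05, and no other ratio changed its call. For Dusp1 in FC against RT the adjusted exact p fell to 0.0357 without FC8. With 1 library left out, the smallest unadjusted p the exact test can give was still 0.00794. The cause of these changes was not tested. With 3246 reads or more for Arc in each library, counting error (0.95% to 1.53%) was below the spread between mice in every group (8.83% to 16.2%).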
